A study of Homo sapiens with 6 samples.

Results

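The RAS, RAF, MEK and ERK genes described here are HRAS, NRAS, ARAF, BRAF, MAP2K1, MAP2K2 and MAPK3, which were found by their Ensembl identifiers in a deposited mRNA-seq table of Kasumi-1 cells. They are 7 of the 29810 genes of that table. Other genes of these families were not analysed here. Kasumi-1 is an established line of human AML cells with the RUNX1-RUNX1T1 fusion gene. Of the 6 samples, 3 are controls and 3 were given 0.25 μM I3, an HDAC inhibitor, and the methods describe the control as the solvent DMSO. The labels and the methods give 48 h of incubation, whereas a figure legend of the study gives a longer time and the name of the deposited table writes the compound as I13. All samples are of this single line and differ only in the agent. The labels do not say whether the samples were separate cultures, so the p-values measure only the spread between these samples, which may be technical. A bulk level of mRNA also cannot tell fewer expressing cells from less RNA per cell.

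RAS proteins are small GTPases that are switched on by growth factor receptors at the cell membrane. Active RAS recruits RAF kinases, RAF kinases phosphorylate the MEK kinases, and MEK kinases phosphorylate ERK kinases, which act on cytoplasmic and nuclear substrates. In myeloid leukemia the cascade is known as a route by which mutated receptors and RAS proteins drive growth. It is switched by phosphorylation and GTP loading, neither of which mRNA-seq measures. The comparison of the deposited values asks whether the mRNA of its components differed between control cells and cells incubated with I3, and ERK was a gene of interest in the study.

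The level of each gene is given as FPKM, the number of fragments per kilobase of a gene and relative to the fragments counted in a library. The depth behind the values, rebuilt from the FPKM steps, was 17500317 to 18193374 reads per library. All 6 markers of the line were present, with RUNX1T1, the partner gene of the fusion, at 14.1 to 17.0 FPKM. Of the markers of other cells, CD3E and COL1A1 were at most 0.179 FPKM, HBB was not analysed here, and PECAM1 lay between 1.54 and 1.96 FPKM. The platelet marker GP1BA had 0.786 to 0.800 FPKM in control libraries and 0.921 to 1.35 FPKM in I3 libraries. The epithelial marker EPCAM was at 28.2 to 31.6 FPKM with overlapping groups. Whether the reads of these markers come from the line itself or from other cells was not tested. The libraries differed in how gene levels followed GC content. The rank correlation of GC content with the deviation of a library from the mean of each gene, over 12939 genes, was below 0 in control 1 (-0.313), I3 1 (-0.232) and I3 3 (-0.446) and above 0 in control 2 (0.446), control 3 (0.337) and I3 2 (0.262).

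The GC content of the 7 genes matters for this reason, and paralogues of the cascade diverge in it although their proteins are alike. In the longest coding sequence of GENCODE release 29, the last position of a codon was G or C in 81.1% of HRAS codons and 45.8% of NRAS codons.

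The same contrast runs through the cascade. Last codon positions were 74.6% G or C in ARAF against 42.0% in BRAF, 83.5% in MAP2K2 against 63.7% in MAP2K1, and 82.1% in MAPK3. The GC content of the transcripts, taken as the median over the annotated transcripts of a gene, was 38.4% for NRAS, 42.4% for BRAF, 50.4% for MAP2K1, 56.8% for ARAF, 60.5% for MAPK3, 63.0% for MAP2K2 and 64.7% for HRAS. The median of all genes tested was 49.3%. NRAS and BRAF are thus the GC-poor members, MAP2K1 lies near the middle, and the other members are GC-rich.

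Sequence identity between paralogues bears on whether a read can be given to the right gene. HRAS and NRAS share 85.2% of 189 aligned residues but 73.0% of the coding bases. The identity is 62.9% of 593 aligned residues and 59.8% of the coding bases for ARAF and BRAF. MAP2K2 and MAP2K1 share 81.4% of 392 aligned residues and 74.2% of the coding bases. Of the annotated pseudogenes, BRAFP1 (0.228 to 0.686 FPKM) and MAP2K1P1 (at most 2 reads in a library) were far below their parent genes, and the pseudogenes of ARAF were not analysed here.

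In all 6 libraries the 7 genes were expressed, with the lowest value at 4.92 FPKM, so all 7 passed the minimum mean of 0.5 FPKM used for testing. By the mean of 6 libraries the order was ARAF (23.5 FPKM), MAP2K2 (22.5 FPKM), NRAS (21.1 FPKM), HRAS (11.6 FPKM), MAP2K1 (9.38 FPKM), MAPK3 (6.58 FPKM) and BRAF (5.23 FPKM). The ranges of ARAF, MAP2K2 and NRAS over the libraries overlapped, and MAP2K2 exceeded NRAS in 3 of 6 libraries. Only the step from NRAS to HRAS separated neighbours whose ranges did not touch. HRAS exceeded MAP2K1, MAP2K1 exceeded MAPK3 and MAPK3 exceeded BRAF in 6 of 6 libraries, although each of these ranges overlapped. The kinases ARAF and MAP2K2 were thus the more abundant transcripts of their pairs, and NRAS that of the RAS pair.

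The place of BRAF depends on the gene length. For 6 members the FPKM values gave whole reads in every library, to within 0.01 read, at the exon length of GENCODE release 29. For BRAF they gave whole reads at 10380 nt, whereas that release counts 23432 nt of exons. With the longer length the same reads would give BRAF a mean of 2.32 FPKM in place of 5.23 FPKM. Its order after MAPK3 does not change.

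**Figure D1:**
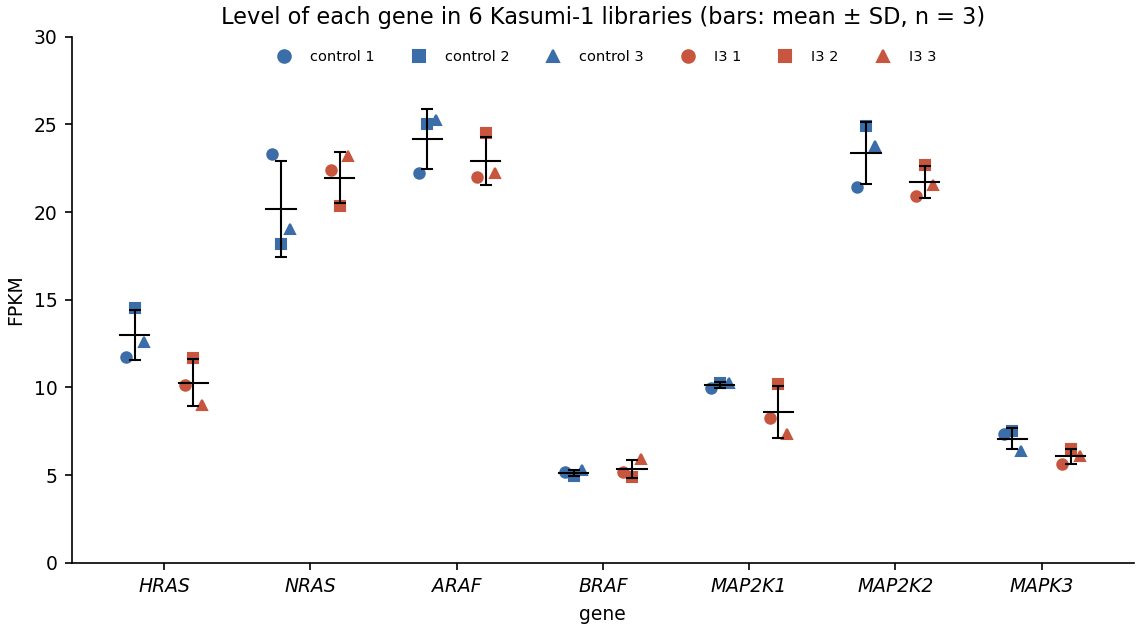
FPKM (y axis) of the 7 genes (x axis) in each of 3 control (blue) and 3 I3 (red) libraries, with the group mean and SD (n = 3) as black bars. The I3 values of HRAS lie below its control values, from 8.98 to 11.7 FPKM against 11.8 to 14.5 FPKM, and the groups of the other 6 genes overlap.

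None of the 7 genes was called as changed after I3. The test was limma on log2(FPKM + 0.5) over 12960 genes, two-sided, and a gene was called at an adjusted p under 0.05 (Benjamini-Hochberg over all tested genes) when its log2 fold change reached 0.58 in either direction. It called 0 of 7 members and 0.0% of all genes tested, and limma's voom on rebuilt reads also called 0 members. The smallest adjusted p of all genes tested was 0.309 in limma, so the lack of calls is not particular to the members. At the same thresholds the study reported changed genes in both directions with DESeq, a count method that was not run here. At an unadjusted p under 0.05 limma counted 2 members as lower, HRAS and MAPK3, where 2.85% of all genes tested were lower by the same rule, and 0 members as higher, where 2.08% of all genes were. voom counted 2 members as lower as well, HRAS and MAP2K1, where 2.73% of the 13605 genes it tested were lower. The I3 values lay wholly below the control values in 1 member (4.64% of all genes tested), wholly above in 0 members (5.06%) and apart in either direction in 1 of 7 (9.7%). The log2 fold change was below 0 for 5 members and above 0 for NRAS and BRAF, with a median of -0.10 against 0.011 for all genes tested.

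HRAS (ENSG00000174775), a RAS gene named after the oncogene of a sarcoma virus, lies on chromosome 11 of GRCh38 from 532242 to 537287. It had 11.8, 14.5 and 12.6 FPKM in control 1, 2 and 3 and 10.1, 11.7 and 8.98 FPKM in I3 1, 2 and 3. All 3 I3 values were below the control values, but the nearest libraries, control 1 and I3 2, each held 385 reads and were separated by the library totals. Control libraries averaged 13.0 ± 1.43 FPKM (SD, n = 3) and I3 libraries 10.3 ± 1.35 FPKM (SD, n = 3), a ratio of 0.791. The log2 fold change of -0.33 (standard error 0.113, 95% interval -0.59 to -0.060) had an unadjusted p of 0.0229 and an adjusted p of 0.942 from limma. The exact permutation p was 0.1, the smallest that 3 against 3 libraries allow. HRAS ranked 314th by p among the 12960 genes. Without I3 1, I3 3 or control 2 the unadjusted p was 0.0572, 0.0754 or 0.0781.

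NRAS (ENSG00000213281), the RAS gene most often mutated in AML, lies on chromosome 1 from 114704469 to 114716894. It had 23.3, 18.2 and 19.0 FPKM in control 1, 2 and 3 and 22.4, 20.4 and 23.2 FPKM in I3 1, 2 and 3. The highest value of all was in a control library, and the groups overlapped. Control libraries averaged 20.2 ± 2.73 FPKM (SD, n = 3) and I3 libraries 22.0 ± 1.45 FPKM (SD, n = 3). The log2 fold change of 0.13 (standard error 0.101, 95% interval -0.11 to 0.36) had an adjusted p of 0.998 from limma, and the exact permutation p was 0.4. The result leaned on control 1, without which the log2 fold change was 0.23 with an unadjusted p of 0.0165 in limma. Without that library 7.30% of all genes tested were higher at an unadjusted p under 0.05, against 2.08% with all libraries.

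The RAF kinases showed smaller differences. ARAF (ENSG00000078061), on the X chromosome from 47561100 to 47571920, encodes a RAF protein with low kinase activity of its own. It had 22.2, 25.0 and 25.2 FPKM in the control libraries and 22.0, 24.5 and 22.2 FPKM in the I3 libraries, with overlapping groups. Its log2 fold change was -0.07 (standard error 0.0736, 95% interval -0.25 to 0.098, adjusted p = 0.998 from limma). With single libraries left out it ran from -0.13 (without control 1) to -0.042 (without control 3). BRAF (ENSG00000157764), on chromosome 7 from 140719327 to 140924928, encodes the RAF kinase with the highest basal activity. It had 5.19, 4.94 and 5.27 FPKM in the control libraries and 5.16, 4.92 and 5.90 FPKM in the I3 libraries. The lowest and the highest value were both from I3 libraries. Its log2 fold change was 0.046 (standard error 0.0832, 95% interval -0.15 to 0.24, adjusted p = 0.998 from limma) and turned to -0.024 without I3 3. BRAF shares 1239 nt of its exons with NDUFB2 on the opposite strand, which was at 2.25 to 3.50 FPKM.

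Of the MEK kinases, MAP2K1 (ENSG00000169032) lies on chromosome 15 from 66386817 to 66492312 and encodes MEK1. Its 3 control values were nearly equal at 9.97, 10.3 and 10.3 FPKM. After I3 they were 8.29, 10.2 and 7.33 FPKM, so that I3 1 and I3 3 lay below every control library and I3 2 lay among them. The SD was 1.67% of the mean in control cells and 17.0% after I3, where counting of reads alone gives about 3.99%. The log2 fold change of -0.24 (standard error 0.112, 95% interval -0.50 to 0.022) had an unadjusted p of 0.0671 and an adjusted p of 0.998 from limma, and the exact permutation p was 0.2. Without I3 2 it was -0.36 with an unadjusted p of 0.00347 in limma, and without I3 3 it was -0.14. In the fit without I3 2, 3.01% of all genes tested were lower at an unadjusted p under 0.05. MAP2K1 shares 432 nt of exons (11.5%) with an unnamed antisense gene at 0.0777 to 0.261 FPKM and 216 nt with SNAPC5 on the opposite strand. SNAPC5 had 5.78, 5.64 and 5.58 FPKM in control libraries and 5.19, 6.32 and 4.56 FPKM in I3 libraries, so that it was also low in I3 1 and I3 3. The part of these reads in the MAP2K1 values was not tested, and the sources used here do not say whether counting used the strand.

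MAP2K2 (ENSG00000126934), on chromosome 19 from 4090321 to 4124129, encodes MEK2. The values were 21.5, 24.9 and 23.7 FPKM in control libraries and 20.9, 22.7 and 21.6 FPKM in I3 libraries. I3 2 and I3 3 lay above control 1, so the groups overlapped. The log2 fold change was -0.10 (standard error 0.0708, 95% interval -0.27 to 0.065, adjusted p = 0.998 from limma). Without control 1 it was -0.16, with an unadjusted p of 0.0350 in limma. In that fit 3.66% of all genes tested were lower at an unadjusted p under 0.05.

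MAPK3 (ENSG00000102882), the gene of ERK1 at the end of the cascade, lies on chromosome 16 from 30114105 to 30123506. It had 7.33, 7.53 and 6.40 FPKM in control 1, 2 and 3 and 5.66, 6.48 and 6.07 FPKM in I3 1, 2 and 3. Control 3 was below I3 2, so the groups overlapped by these libraries. Control libraries averaged 7.09 ± 0.604 FPKM (SD, n = 3) and I3 libraries 6.07 ± 0.410 FPKM (SD, n = 3), a ratio of 0.856. The log2 fold change of -0.21 (standard error 0.0857, 95% interval -0.41 to -0.0057) had an unadjusted p of 0.0452 and an adjusted p of 0.998 from limma, and the exact permutation p was 0.2. Without control 1, control 2, I3 1 or I3 3 the unadjusted p was 0.101, 0.140, 0.147 or 0.0905.

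For 6 of the 7 genes the 95% interval lay within a log2 fold change of 0.58 in either direction. The exception was HRAS, whose interval reached -0.59. The reads behind a value ran from 303 to 480 per library for HRAS and from 370 to 492 for MAPK3, and from 1950 to 2320 for MAP2K2. Counting of reads alone gives a spread of 2.18% to 5.11% of the mean for the 7 genes. The observed SD was 1.67% to 13.5% of the mean in control cells and 4.18% to 17.0% after I3.

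**Figure D2:**
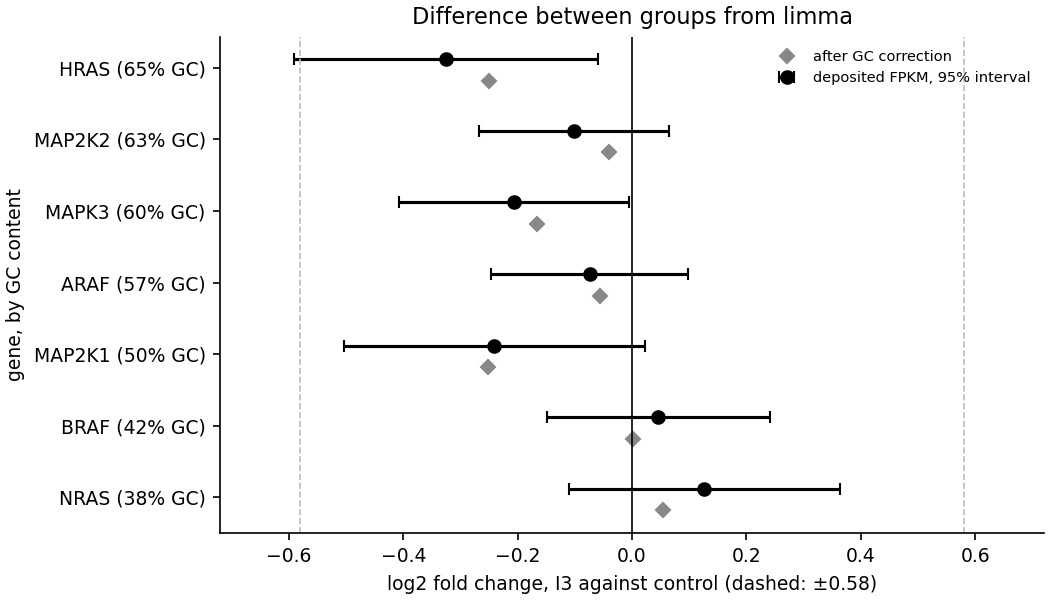
log2 fold change after I3, against control cells (x axis), for the 7 genes, ordered by GC content (y axis), with the 95% interval from limma in black, the value after a correction for GC content in grey and the fold threshold dashed. The 2 GC-poor genes, NRAS and BRAF, lie right of 0 and the other 5 lie left of it, and 6 of the 7 intervals stay inside the threshold.

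The log2 fold changes tended to be lower in members with higher GC content, and whether GC content caused this was not tested. Across the 7 genes the rank correlation of GC content with the log2 fold change was -0.750, with genes that share the same 6 libraries. In control 2 HRAS lay 0.33 above its mean over the libraries on the log2 scale and NRAS 0.20 below its own (a deviation of -0.20). In I3 3 HRAS deviated by -0.34 and NRAS by 0.14. Not every member followed the trend of its library: MAPK3 lay above its mean in control 1 (0.15) as well as in control 2 (0.19), and MAP2K1 lay above its mean in all 3 control libraries. After each library was corrected for GC content, the log2 fold change was -0.25 for HRAS (unadjusted p = 0.0101), -0.25 for MAP2K1 (unadjusted p = 0.0477) and -0.17 for MAPK3 (unadjusted p = 0.0701) in limma. For NRAS it was 0.055, for ARAF -0.055, for MAP2K2 -0.041 and for BRAF 0.0011. The difference of MAP2K1 was thus no smaller with the correction, those of the other 6 members were smaller, and the rank correlation with GC content over the 7 genes was -0.536. In this limma fit 0 members were called. At an unadjusted p under 0.05, 2 members were lower, where 3.50% of all genes tested were lower by the same rule.

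**Figure D3:**
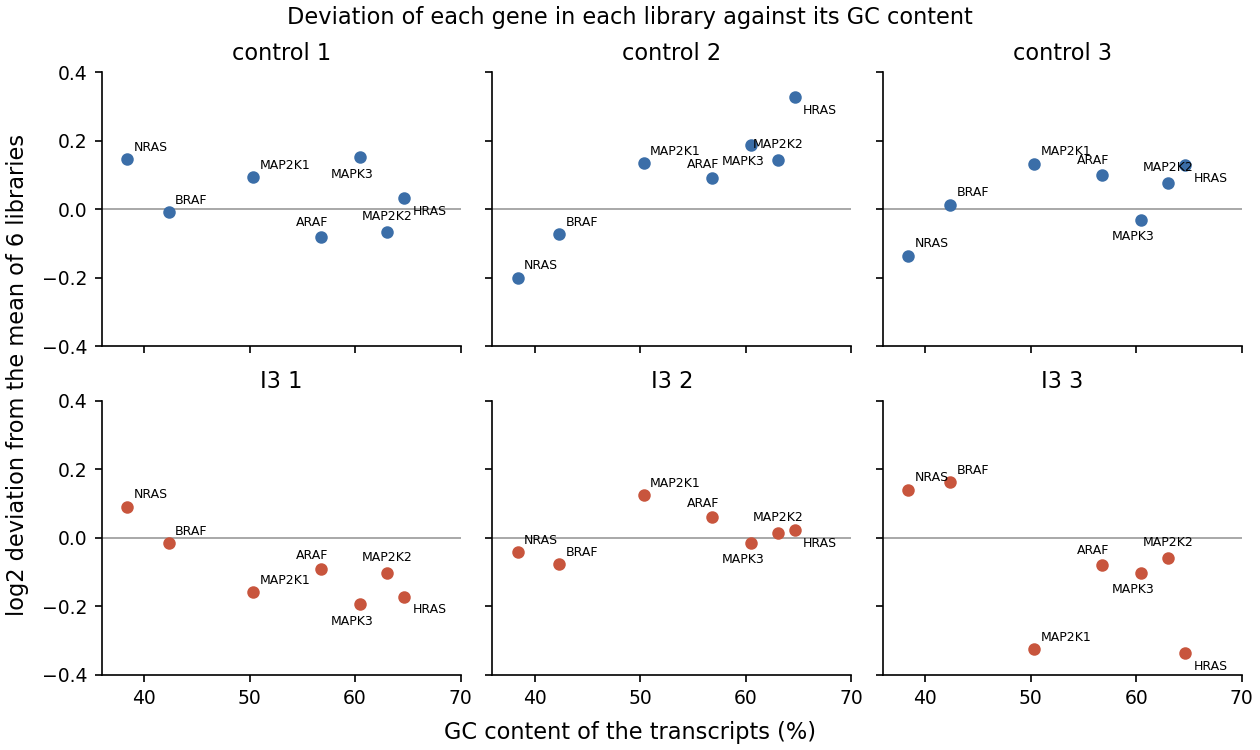
Deviation of each of the 7 genes from its mean over 6 libraries on the log2 scale (y axis) against the GC content of its transcripts in percent (x axis), with 1 panel per library. NRAS and BRAF lie above and HRAS below 0 in I3 3, and the reverse holds in control 2, where HRAS reaches 0.33.

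Ratios of paralogues compare genes within a library and do not depend on its total. HRAS stood at 0.505, 0.799 and 0.662 times the FPKM of NRAS in control 1, 2 and 3 and at 0.453, 0.573 and 0.388 times in I3 1, 2 and 3. Every library had more NRAS than HRAS, and I3 2 lay above control 1, so the groups overlapped. On the scale of the log2 ratio the difference between I3 and control cells was -0.45, with means of -1.07 ± 0.273 (SD, n = 3) and -0.62 ± 0.323 (SD, n = 3). The two-sided exact permutation p was 0.2 (0.4 after adjustment over 3 ratios). The genes differ by 26.2 percentage points in GC content. With the GC correction the difference was -0.30 and all I3 ratios lay below the control ratios, from -1.11 to -0.88 against -0.81 to -0.55, with an exact permutation p of 0.1.

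ARAF stood at 4.28, 5.07 and 4.79 times the FPKM of BRAF in the control libraries and at 4.27, 4.98 and 3.77 times in the I3 libraries. These ratios rest on the length behind the deposited BRAF values, and the longer GENCODE length would raise them. The groups overlapped, and the difference of the log2 ratio was -0.12 (exact permutation p = 0.4). MAP2K2 stood at 2.15, 2.42 and 2.31 times the FPKM of MAP2K1 in the control libraries and at 2.52, 2.23 and 2.94 times in the I3 libraries. I3 1 and I3 3 had the highest ratios of MAP2K2 to MAP2K1, while I3 2 lay among the controls. The difference of the log2 ratio was 0.14 (exact permutation p = 0.4) and 0.041 without I3 3. With the GC correction it was 0.21 for this ratio and -0.056 for ARAF to BRAF, and the groups of both still overlapped. After adjustment over the 3 ratios each p was 0.4, and with this design none can go below 0.1.

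**Figure D4:**
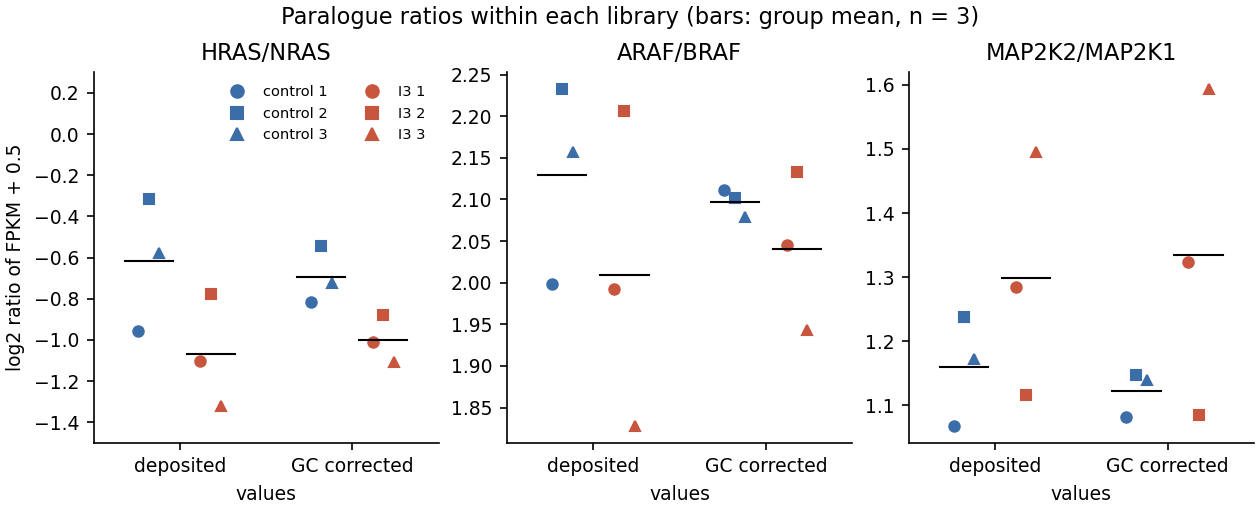
log2 ratio of FPKM + 0.5 (y axis) for HRAS to NRAS, ARAF to BRAF and MAP2K2 to MAP2K1 in each library, from the deposited values and after the correction for GC content (x axis), with group means (n = 3) as bars. HRAS to NRAS is below 0 in all libraries, and its groups overlap in the deposited values and separate after the correction.

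Genes with the most similar pattern over the 6 libraries were sought among the 6635 other genes with a mean of at least 5 FPKM. CREB3 (r = 0.994) and SCAF1 (r = 0.989) were most like HRAS, CEP170 (r = 0.998) and PTGES3 (r = 0.996) were most like NRAS, and IMPDH1 (r = 0.996) and RABGGTA (r = 0.993) were most like ARAF. POGK (r = 0.995) was most like BRAF, and SAMD1 (r = 0.992) and KDM1A (r = 0.985) were most like MAP2K1. PPP6R1 (r = 0.998) and NOP2 (r = 0.991) were most like MAP2K2. TST (r = 0.995) and the pseudogene EIF4A1P10 (r = 0.994) were most like MAPK3. For each member these are the highest of 6635 values over only 6 libraries, so a high r alone does not show shared regulation. Pearson's r was over 0.9 for 0.573% of the genes in the case of MAPK3 and for 9.46% in the case of NRAS. The genes above 0.9 had a median GC content of 41.2% for NRAS and 61.1% for HRAS, whose own GC content was 38.4% and 64.7%. It was 59.9% for MAP2K1 and 53.3% for MAPK3, whose own GC content was 50.4% and 60.5%. Among the members, r was -0.83 between HRAS and NRAS, 0.90 between HRAS and MAP2K1 and 0.93 between ARAF and MAP2K2.

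The wider pathway was read from 8 lists of 89 genes written from general knowledge, of which 71 were tested. In these, 0 genes were called, 1 was higher and 3 were lower at an unadjusted p under 0.05 in limma, which is 4 of 71 where 4.93% of all genes tested passed in either direction. The median log2 fold change of the 71 genes was -0.00020. The GTPase activating proteins, which switch RAS off, held 1 of 7 tested genes in each direction. RASA1 had 6.95, 6.20 and 6.04 FPKM in control libraries and 6.85, 7.42 and 8.17 FPKM in I3 libraries, a log2 fold change of 0.21 (unadjusted p = 0.0461, limma). RASAL3 had 5.31, 5.70 and 4.86 FPKM against 4.40, 4.91 and 3.84 FPKM, a log2 fold change of -0.25 (unadjusted p = 0.0446, limma). In both genes the groups overlapped. RASA1 is GC-poor (40.0%) and RASAL3 GC-rich (64.5%), and the GC correction left 0.15 and -0.17.

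Among 18 scaffolds and modulators, 1 was lower, YWHAH, which encodes a 14-3-3 protein of the family that binds phosphorylated RAF. It had 72.6, 75.1 and 70.8 FPKM in control libraries and 68.4, 57.4 and 55.6 FPKM in I3 libraries. All I3 values were below the control values, and the log2 fold change of -0.27 (unadjusted p = 0.0128, adjusted p = 0.845, limma) was -0.28 after the GC correction. The other 14-3-3 genes of the list had log2 fold changes of -0.020 (YWHAE) to 0.065 (YWHAG). Of 9 ERK substrates, 1 was lower. MKNK2, a kinase that ERK activates to phosphorylate a translation factor, had 36.9, 37.5 and 35.5 FPKM in control libraries and 32.8, 35.3 and 31.2 FPKM in I3 libraries, a log2 fold change of -0.14 (unadjusted p = 0.0495, limma) that was -0.091 after the GC correction.

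In the remaining lists 0 genes passed an unadjusted p of 0.05 in limma. Of the 10 tested exchange factors, which load RAS with GTP, and adaptors, which link them to receptors, the adaptor GRB2 had the highest level, with 79.8 to 86.2 FPKM in control libraries and 79.4 to 84.4 FPKM after I3. ICMT, which methylates the RAS tail, led the 9 genes of lipid processing at 28.8 to 30.8 and 28.0 to 30.1 FPKM. RHEB led the 8 RAS-related GTPases at 20.1 to 21.9 and 20.4 to 20.7 FPKM, and MAPK6 the 4 other MEK and ERK kinases at 11.5 to 13.2 and 11.4 to 13.4 FPKM. In each of these genes the groups overlapped.

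Of 10 transcripts known to follow ERK activity, 6 were tested, and their log2 fold changes ran from -0.21 (ETV4) to 0.22 (CCND1) with a median of 0.016. The genes at both ends had the lowest levels of the 6, with means of 1.08 FPKM (ETV4) and 0.634 FPKM (CCND1). DUSP6, a phosphatase of ERK and a common readout of its activity, had 21.1, 21.6 and 19.9 FPKM in control libraries and 18.8, 22.3 and 21.4 FPKM after I3. I3 libraries held both the lowest and the highest DUSP6 value. SPRY2 and DUSP4 had log2 fold changes of 0.040 and 0.038, and ETV5 of -0.14, each with an adjusted p of 0.998 from limma. By western blot the study reported less phosphorylated ERK protein and unchanged total ERK protein, after a longer incubation than that of these libraries. The mRNA levels do not measure that phosphorylation.

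**Figure D5:**
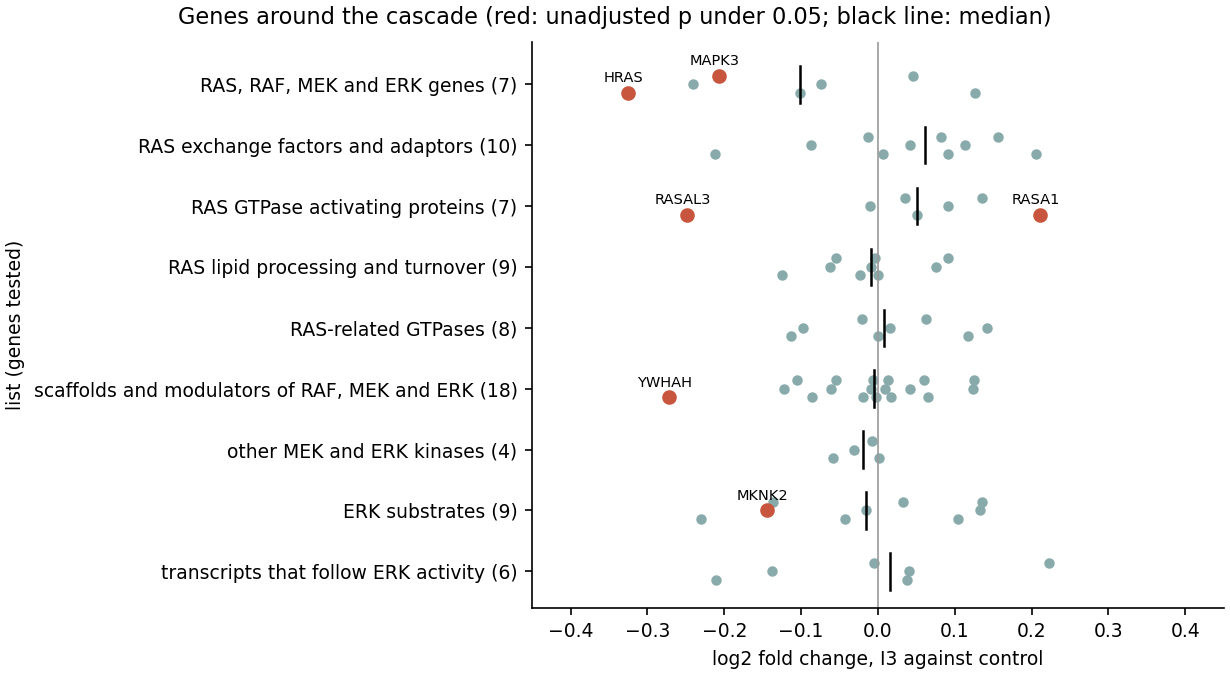
log2 fold change after I3, against control cells (x axis), of each tested gene in the RAS, RAF, MEK and ERK group and in 8 lists of related genes (y axis, number tested in brackets), with genes at an unadjusted p under 0.05 in red and medians as black lines. All lie between -0.33 and 0.22, and 6 genes are red, HRAS and MAPK3 among them.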

How the data were processed

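Kasumi-1 mRNA was sequenced from stranded libraries, and the authors deposited FPKM values with 1 column for each library. The submitters' processing notes name Trimmomatic, HISAT2, Cufflinks, HTSeq and the build hg38, without version or role. Groups and replicate numbers came from the sample titles. Identifiers were matched to GENCODE release 29 (29703 of 29810), which gave symbols, coordinates, exon lengths and GC content. FPKM times exon length gave whole reads in all libraries for 95.7% of 26519 genes (tolerance 0.1 read).

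Groups were compared with limma 3.58.1 (R 4.3.3, eBayes with trend) on log2(FPKM + 0.5) for 12960 genes whose mean reached 0.5 FPKM, since FPKM does not suit a count model. A fold change on this scale understates that of low genes. Ratios were compared by exact permutation tests (scipy 1.17.1). The GC correction removed a lowess trend (span 0.3) from each library. Named genes are the 7 members, list genes with an unadjusted p under 0.05 (otherwise the gene with the highest mean) and, for each member, the 2 genes with the highest r, with overlapping genes and pseudogenes. YWHAE, YWHAG, ETV4, ETV5, CCND1, SPRY2 and DUSP4 were named after their values were seen. Members and lists were chosen with earlier results of these data known. Some genes and sequences are not reported here.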

Additional observations from a re-analysis of the deposited data

How the results depend on the processing

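Only 3 libraries a group and 303 to 480 reads for HRAS limit what small differences can be seen. Alternatives were pseudocounts of 0.1 and 1, other minimums, TPM, median-of-ratios and quantile scaling, eBayes without trend, the GC correction, voom, the replicate block and each library left out. Over all of them 0 members were called, and signs stayed except for BRAF without I3 3 (-0.024, in a range of -0.024 to 0.096 with single libraries left out). Other minimums, no trend and the block leave the fold change of a gene as it is, so its sign could not change there. With single libraries left out, 0 to 3 members were lower and 0 to 1 higher at the unadjusted p, and 1 to 3 list genes were lower and 0 to 10 higher, with 10 without control 1. Over all genes tested in these fits, 1.84% to 3.66% were lower and 1.51% to 7.30% higher, with 7.30% without control 1. The log2 ratio difference then ran from -0.62 to -0.30 for HRAS to NRAS, -0.22 to -0.030 for ARAF to BRAF and 0.041 to 0.23 for MAP2K2 to MAP2K1. The number of members lower was 1 with TPM and without trend. The number of list genes lower was 1 with a mean of at least 5 FPKM, TPM and without trend, and that of list genes higher was 0 with TPM and quantile scaling and 4 with voom. Of all genes tested, 2.38% were lower with TPM, 2.65% without trend and 3.36% with a mean of at least 5 FPKM. Higher were 2.49% with TPM, 1.87% with quantile scaling and 2.15% with voom. Of the lower list genes, the minimum of 5 FPKM removes RASAL3 (mean of 4.84 FPKM), while YWHAH and MKNK2 stay above it. The cause of the other changes was not tested.

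The labels number the replicates of both groups alike. The deviations of same-numbered libraries correlated by 0.0634, 0.151 and -0.0239, so the numbers were not taken as pairs. The replicate block left 2 members lower and 0 list genes higher and 4 lower (2.80% and 3.80% of all genes), with an unadjusted p of 0.00554 for HRAS (limma). With equal groups the block cannot change a mean difference, so those of HRAS (-0.33) and of the ratios (-0.45, -0.12 and 0.14) were fixed in advance.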
